A study of Mus musculus with 27 samples.

Results

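The 10 genes described here encode the carriers and pumps that move bile salts, conjugated anions, phospholipid and drugs across the hepatocyte membranes: Slc10a1, Slco1a1, Slco1a4 and Slco1b2 for uptake from blood, Abcb11, Abcb4, Abcb1a and Abcc2 for export into bile, and Abcc3 and Abcc4 for export back into blood. They were chosen by name, with earlier results of these data known. The probe sets that the platform's annotation assigns to exactly 1 of these symbols numbered 17, out of 45101 probe sets on the array and 34958 with a single symbol. Of the 10 genes, 9 had a probe set whose mean signal passed the detection level in at least 1 diet, among 6478 such genes in all, and Abcc4 had none.

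Liver RNA was measured in 27 male C57BL/6 mice with no genetic alteration named in the labels, 10 weeks old, with 1 array per mouse and n = 3 mice on each of 9 diets for 3 weeks. The control was the AIN-93 purified diet. The other diets were lab chow, a natural ingredient diet, a high-fructose diet (60% fructose), a high-fat diet, a Western diet (42% of energy from fat, with sucrose), an atherogenic diet (fat, sucrose, cholesterol and cholic acid, which is itself a bile acid), an EFA-deficient diet lacking essential fatty acids, a low n-3 diet (7% sunflower oil), and diet restriction, in which mice received lab chow at 75% of the amount eaten ad libitum. By the published diet composition, the EFA-deficient diet also held far more sucrose than the control diet. The low n-3 arrays carry titles that name a DHA supplement and were assigned by their description. The mice were killed in the morning, and the comparison of each diet with control uses the same 3 control arrays every time.

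Hepatocytes take bile salts up from sinusoidal blood through the sodium-dependent carrier encoded by Slc10a1 and through organic anion transporting polypeptides encoded by the Slco genes. At the canalicular membrane the ATP-driven pump of Abcb11 secretes bile salts, Abcb4 moves phosphatidylcholine into bile, Abcc2 exports glutathione and glucuronide conjugates, and Abcb1a exports hydrophobic drugs. When bile salts accumulate, the basolateral pumps of Abcc3 and Abcc4 can return them to blood, and in liver these genes are known to answer to the bile acid receptor FXR (Nr1h4) and to the xenobiotic sensors CAR (Nr1i3), PXR (Nr1i2) and Nrf2 (Nfe2l2).

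Values are log2 intensities as deposited, in which the shared lowest value was 2.29 on every array and the detection level of log2(100) was 6.64. The kept probe sets had medians between 8.22 and 8.38 across arrays. All 7 hepatocyte markers on the array lay above the detection level in every diet, matching the liver label, and none of the 6 cholangiocyte markers did, Krt7 and Krt19 included. Kept probe sets of a gene were averaged. Differences were tested in limma with all 27 arrays in the fit, and p was adjusted jointly for every kept gene and the 8 diets, at 0.05. If no array of a group reached the detection level, the detection level stands in for it and the fold is written as at least that size, while the p belongs to the fitted difference. The number of arrays limits the precision, and intensities of different probe sets were not set against each other.

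Diet reached the transport genes unevenly. Restriction to 75% of the chow took Slco1a1 below the detection level, raised Slco1a4 and lowered Abcb11, whereas the atherogenic diet lowered the uptake carriers Slc10a1 and Slco1a1 and raised Abcb11 and Abcb4. The pump genes Abcc2 and Abcc3 were higher than control on lab chow, high-fat, Western and atherogenic diets and under restriction. The restricted mice ate lab chow, and against lab chow their Abcc3 was at 114.8% and not called. In bulk liver RNA, fewer cells of a type and less RNA per cell cannot be told apart.

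By diet, the atherogenic food changed 7 of the 9 tested members. It gave 5 higher than control, where 9.03% of all 6478 genes were higher, and 2 lower, where 5.88% were. The median difference of these 9 genes was 0.86 on the log2 scale, against 0.03 over all genes. Abcb1a is among the 5 and in the median, although it lay below the detection level in both groups. The others of the 5 are Abcc3, Abcb4, Abcc2 and Abcb11. Diet restriction gave 4 higher and 2 lower, against 13.5% and 16.0% of all genes. Abcb1a is among those 4 and passed the filter on low signal only through the restricted mice, so its count is not read against the background. Of the other 8 tested members, 3 were higher and 2 lower. High-fat and Western diets each gave 3 higher and none lower, with 6.00% and 3.33% of all genes higher and lower on the former and 4.31% and 4.48% on the latter, and in both the genes were Abcc3, Abcc2 and Abcb4. Lab chow gave 2 higher and 1 lower, against 2.02% and 2.19% of all genes. High fructose gave none higher and 1 lower, Slco1a4, against 1.17% and 2.73%. The EFA-deficient diet gave 1 higher, Abcc2, and none lower, where 3.04% and 2.47% of all genes were called. The low n-3 diet gave no call in either direction at 0.340% and 0.726% of all genes, none of its 9 unadjusted p-values in limma was below 0.05, and Dunnett's comparison gave no call there either. An F-test across the 9 diets in limma called all 9 tested members, where 71.6% of all genes were called, which says little about the members.

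**Figure D1:**
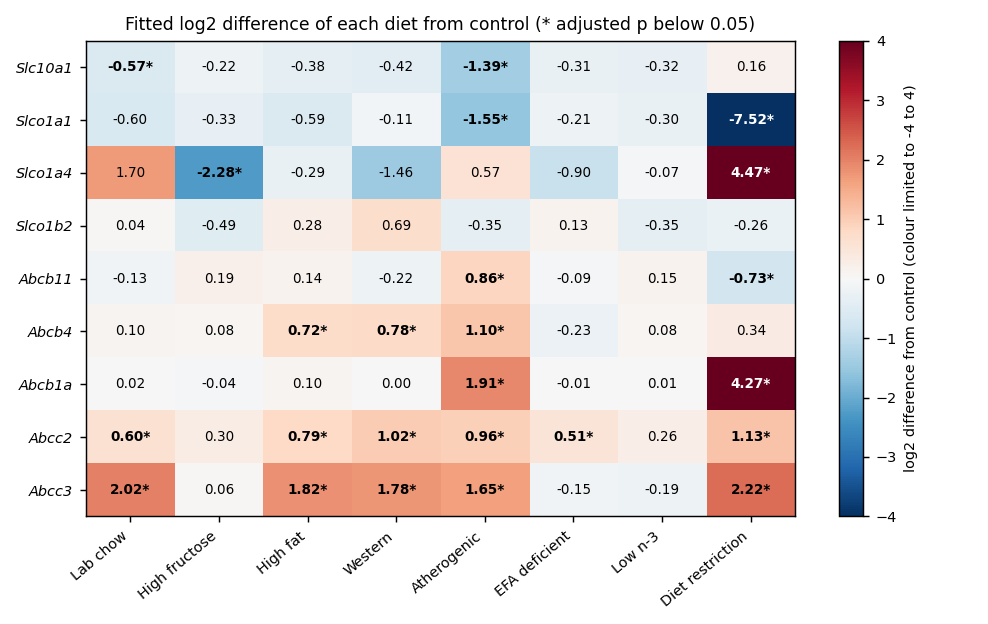
Fitted log2 difference from control for the 9 tested transporter genes (rows) on each of 8 diets (columns), with colour from blue (lower) to red (higher) limited to 4 either way and an asterisk where the adjusted p in limma was below 0.05. The strongest colours stand in the diet restriction column, where Slco1a1 is at -7.52 and Slco1a4 at 4.47, and asterisks stand on 5 diets in the Abcc3 row and on 6 in the Abcc2 row. Values for Abcb1a, for Slco1a1 under restriction and for Slco1a4 on high fructose and Western diets involve groups below the detection level.

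Slc10a1, the sodium-dependent bile salt carrier, was lowest on the atherogenic diet. Its log2 intensity was 13.09, 13.29 and 13.04 in the control mice and 11.93, 11.32 and 11.99 in the atherogenic mice. Every atherogenic value lay below every value of any other diet, and the second atherogenic mouse was the lowest of all. Atherogenic livers were thus at 38.0% of the control mean (30.0 to 48.2, with 95% confidence intervals in brackets here and throughout, adjusted p = 6e-06). On lab chow the 3 values of 12.56, 12.52 and 12.62 also lay below the control range, at 67.3% of control (53.1 to 85.3, adjusted p = 0.03). That call was lost when any single control or chow array was left out, with log2 differences from -0.62 to -0.50 and adjusted p from 0.051 to 0.12. Mice under restriction had 13.41, 13.41 and 13.07, which overlapped control, at 111.6% (88.0 to 141.4, adjusted p = 0.61). The means on the other 5 diets stood between 74.7% of control on the Western diet and 86.1% on high fructose, none of them past the adjusted threshold. All 3 values of the high-fructose, high-fat, Western and low n-3 groups nevertheless lay below the control range, and the EFA-deficient group overlapped it. The pair of probe sets for this gene moved alike, with atherogenic values of 12.84, 12.39 and 12.90 on the one and 11.03, 10.24 and 11.07 on the other.

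Slco1a1, an organic anion carrier that is known as a male-predominant gene in mouse liver, was the member with the widest range. Control livers gave 11.20, 10.73 and 10.73, and restricted livers 3.86, 3.31 and 2.92. All 3 restricted values lay below the detection level and the other 24 arrays lay above it. The restricted mean was at least 18.9-fold lower than control (adjusted p = 1.2e-13) and at least 12.5-fold lower than lab chow (adjusted p = 8.1e-14). Atherogenic livers held intermediate values of 10.00, 8.31 and 9.72, all below the control range, at 34.2% of control (22.4 to 52.4, adjusted p = 0.0015). Without the second atherogenic mouse the log2 difference was -1.03 in place of -1.55, still past the threshold (adjusted p = 0.0042), and with the control and atherogenic arrays fitted alone the adjusted p was 0.081. Between the other 7 diets the means ran from 10.29 on lab chow to 10.89 in control and each diet overlapped the next. All 3 values on lab chow, high fructose, high fat and low n-3 nevertheless lay below the control range, without a call. Lab chow and high-fat livers were at 66.0% and 66.6% of control, with intervals of 43.1 to 101.0 and 43.6 to 101.9.

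**Figure D2:**
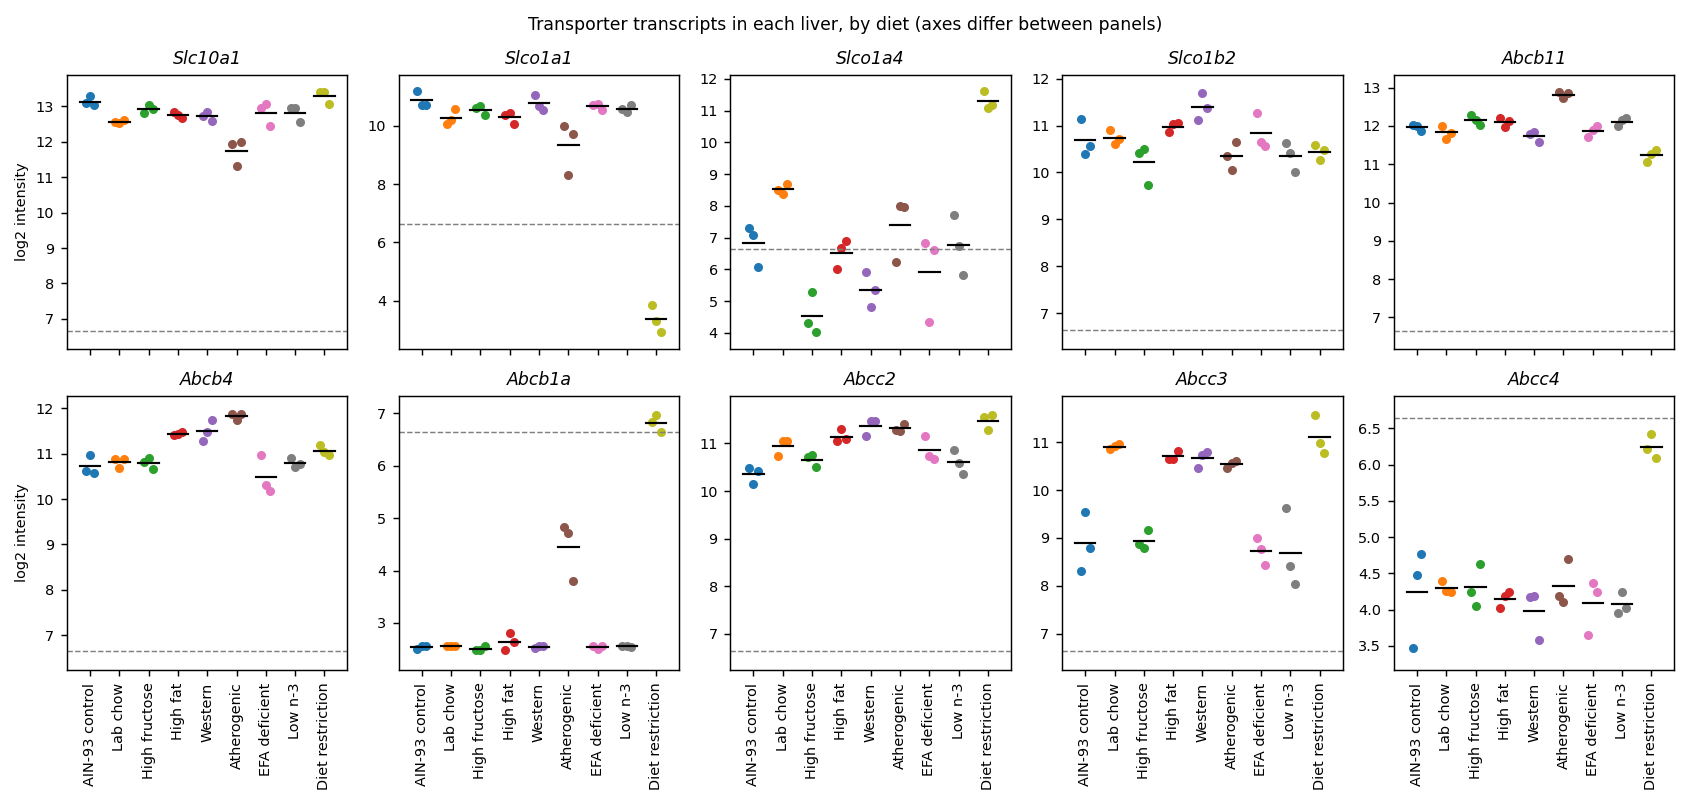
Log2 intensity of each of the 10 transporter genes (panels, with different vertical axes) in the 27 livers by diet, with a point for each mouse, a bar at the diet mean and a dashed line at the detection level of 6.64. Slco1a1 falls to between 2.92 and 3.86 under diet restriction while Slco1a4 stands between 11.08 and 11.61, and Abcc3 forms a group of 5 diets from 10.45 upward and a group of 4 diets from 9.63 downward.

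Slco1a4, a neighbouring paralog that also carries bile salts and cardiac glycosides, was measured near the detection level in control livers, at 7.31, 7.08 and 6.07. Restricted livers held 11.61, 11.08 and 11.19, apart from all other arrays. This was a log2 difference of 4.47 (3.27 to 5.67, adjusted p = 1.8e-05), with the control mean only just above the detection level. Lab chow livers followed with 8.50, 8.37 and 8.69, again without overlap with control, at 325% (141.5 to 745.9), though the adjusted p was 0.067. High-fructose livers had the lowest values, 4.32, 5.28 and 4.03, all below the detection level and below the control range. They were at least 1.13-fold lower than control (adjusted p = 0.014). That call was lost without high-fructose replicate 3 (adjusted p = 0.056), without control replicate 1 (0.059) or control replicate 2 (0.053), and the adjusted p was 0.11 with the 2 groups fitted alone. Western livers, at 5.91, 4.83 and 5.36, likewise lay below the detection level and the control range, without a call (adjusted p = 0.12). Atherogenic, high-fat and low n-3 livers overlapped control. On the EFA-deficient diet the mice were far apart, at 6.82, 4.34 and 6.61, and the 95% interval against control ran from 23.4% to 123.3%.

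Slco1b2, the liver-specific carrier of bile salts and bilirubin conjugates, gave no call against control on any diet in limma, and 2 of its 8 unadjusted p-values were below 0.05. Its log2 value was 11.14, 10.40 and 10.57 in control and 11.12, 11.69 and 11.37 on the Western diet, where it was highest. The Western group overlapped control, at 161.4% (115.8 to 225.0, adjusted p = 0.062). The adjusted p fell to 0.049 with arrays centred on their medians, to 0.043 with quantile normalization applied again and to 0.0052 with array weights, and it was 0.022 without control replicate 1 and 0.044 without Western replicate 1. High-fructose livers had the lowest mean, 71.3% of control (51.1 to 99.4, adjusted p = 0.2).

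The probe sets for Slco1b2 did not move alike. Of 5 on the array, 2 lay at or close to the lowest value in every diet and 3 were kept. Against a control mean of 12.74, the probe set 1452494_s_at read 13.44, 13.88 and 13.67 in Western livers, above all 3 control values of 13.14, 12.39 and 12.69. On 1449394_at the Western values of 13.49, 13.89 and 13.53 overlapped the control values of 13.73, 13.60 and 13.18. The dim set 1427826_a_at passed the filter only through the Western diet, and its mean on every other diet was below the detection level. The gene mean averages these 3 readings, so its differences depend on which probe set is used.

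**Figure D3:**
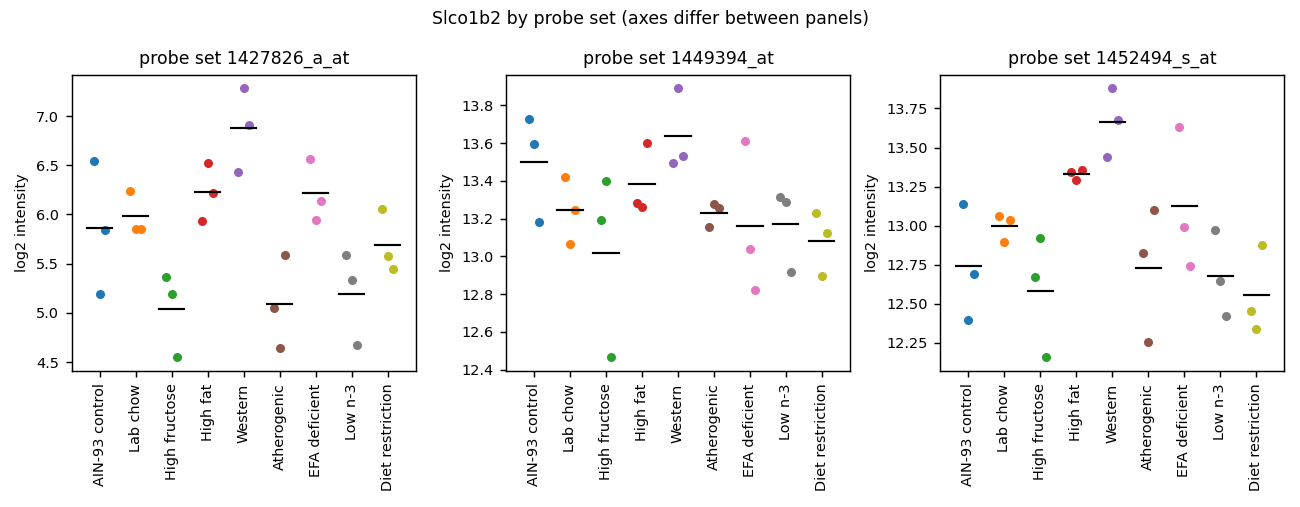
Log2 intensity of the 3 kept probe sets of Slco1b2 (panels, with different vertical axes) in each liver by diet, with a point for each mouse and a bar at the diet mean. Western livers lie above all control livers on 1452494_s_at, from 13.44 to 13.88, but overlap them on 1449394_at.

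The Slco genes lie side by side in the mouse genome. In the GRCm38.p6 assembly Slco1b2 is at chr6:141629452-141686646, Slco1a4 at chr6:141805438-141856284 and Slco1a1 at chr6:141907281-141946962, followed by Slco1a6 and Slco1a5. Probe sets for Slco1a5 and Slco1a6 lay at or next to the lowest value on every diet, so that among the 5 neighbours the response to restriction was +4.47 for Slco1a4, an at least 18.9-fold decrease for Slco1a1 and -0.26 for Slco1b2 (adjusted p = 0.55). RefSeq promoters, from 250 bases before to 50 after the start, are shown for these 3 genes because adjacent genes responded in opposite directions. Capitals mark matches on either strand to the nuclear receptor motif AGGTCA, the STAT core TTCNNNGAA and the antioxidant response core TGACNNNGC, and to the inverted repeat of AGGTCA with 1 base between allowing a single mismatch.
Slco1a1 promoter, chr6:141946913-141947212, minus strand: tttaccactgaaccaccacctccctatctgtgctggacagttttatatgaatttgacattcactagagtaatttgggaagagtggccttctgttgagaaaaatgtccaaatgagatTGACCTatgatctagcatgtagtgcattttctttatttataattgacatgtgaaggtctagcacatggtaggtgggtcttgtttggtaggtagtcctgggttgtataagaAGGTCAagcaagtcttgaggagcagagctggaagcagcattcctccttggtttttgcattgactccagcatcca
Slco1a4 promoter, chr6:141856171-141856470, minus strand: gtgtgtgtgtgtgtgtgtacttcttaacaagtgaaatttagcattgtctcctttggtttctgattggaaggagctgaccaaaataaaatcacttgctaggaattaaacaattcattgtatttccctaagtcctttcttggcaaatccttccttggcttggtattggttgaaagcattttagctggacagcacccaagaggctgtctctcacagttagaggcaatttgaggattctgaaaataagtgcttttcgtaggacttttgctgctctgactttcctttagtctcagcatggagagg
Slco1b2 promoter, chr6:141629268-141629567, plus strand: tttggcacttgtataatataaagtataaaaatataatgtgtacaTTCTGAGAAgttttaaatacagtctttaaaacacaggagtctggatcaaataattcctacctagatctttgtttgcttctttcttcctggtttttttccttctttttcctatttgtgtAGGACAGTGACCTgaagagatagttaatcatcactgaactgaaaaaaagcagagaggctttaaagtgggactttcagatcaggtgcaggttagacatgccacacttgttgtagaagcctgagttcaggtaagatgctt
The Slco1a1 window held AGGTCA in each orientation, at -134 to -129 and at -24 to -19 counted from the start site as 0. The Slco1a4 window held no match to any motif searched. That of Slco1b2 held a STAT core at -206 to -198 and a near-match to the inverted repeat at -88 to -76. The near-match differs from the repeat by T4A, with positions counted from 1 at the 5′ end of the repeat. It contains AGGTCA on the opposite strand, at -81 to -76. Of 32851 promoters of the same length, 16.3% held AGGTCA, 8.3% the STAT core and 12.4% the antioxidant core. A match is a stretch of letters and no more.

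Abcb11, the bile salt export pump, moved in opposite directions under the atherogenic diet and under restriction. Control livers read 12.01, 12.00 and 11.87. Atherogenic livers read 12.88, 12.73 and 12.85, above every other array of the series, and restricted livers 11.06, 11.27 and 11.36, below every other array. The atherogenic mean was 181.4% of control (154.9 to 212.4, adjusted p = 1.6e-05). Under restriction the level was 60.2% of control (51.4 to 70.5, adjusted p = 0.00011). On the remaining 6 diets the level lay between 85.9% of control on the Western diet and 114.1% on high fructose, without a call, and neighbours in this order overlapped. Western values all lay below the control range and high-fructose values all above it. With array weights the high-fructose difference of 0.26 on the log2 scale passed the threshold (adjusted p = 0.047). The atherogenic and restriction calls held under every alternative run, with log2 differences from 0.81 to 0.90 and from -0.80 to -0.65 when single arrays were left out.

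The promoter of Abcb11 is shown because FXR is known to act on this gene through an inverted repeat.
Abcb11 promoter, chr2:69342567-69342866, minus strand: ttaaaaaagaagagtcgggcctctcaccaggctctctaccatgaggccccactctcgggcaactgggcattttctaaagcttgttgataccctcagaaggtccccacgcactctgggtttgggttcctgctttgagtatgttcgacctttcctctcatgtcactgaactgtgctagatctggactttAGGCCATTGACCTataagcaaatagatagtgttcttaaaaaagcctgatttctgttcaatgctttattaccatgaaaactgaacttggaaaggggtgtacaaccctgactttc
Capitals mark a near-match to the inverted repeat at -63 to -51, which differs from it by T4C and contains AGGTCA on the opposite strand. An exact inverted repeat stood in 0.00913% of all promoters and in none of the 9 members with a RefSeq entry, and 0.0822% of all promoters, Abcb11 and Slco1b2 among them, held one with at most 1 mismatch. The single-mismatch search was added after the sequences had been seen. Slco1b2, with a near-match of the same kind, was at 78.4% of control on the atherogenic diet (56.2 to 109.3, adjusted p = 0.38). Nr1h4, which encodes FXR, was at 61.4% of control there (44.8 to 84.0, adjusted p = 0.044). Binding was not measured, and the part of FXR in these values was not tested.

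Abcb4, the phospholipid translocator of the canalicular membrane, was higher on the 3 diets rich in fat. Control values were 10.62, 10.96 and 10.58. High-fat livers read 11.41, 11.43 and 11.49, Western livers 11.28, 11.49 and 11.74, and atherogenic livers 11.87, 11.74 and 11.87. None of these 9 livers overlapped the control range. The level was 165% of control on high fat (131.9 to 206.4, adjusted p = 0.0041), 171.7% on Western (137.3 to 214.7, adjusted p = 0.0022) and 215% on the atherogenic diet (171.9 to 268.9, adjusted p = 5.2e-05). With Western and control arrays fitted alone the adjusted p was 0.069. Restricted livers, at 11.19, 11.03 and 10.96, stood at 126.5% (101.1 to 158.2, adjusted p = 0.19). The EFA-deficient mean was the lowest, 85.2% of control (68.1 to 106.6, adjusted p = 0.4), with 1 mouse at 10.98 and the others at 10.31 and 10.18. Without the first of these, EFA-deficient replicate 1, the log2 difference was -0.48 in place of -0.23 and passed the threshold (adjusted p = 0.023).

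Abcb1a, which encodes a P-glycoprotein, was close to the lowest value in most livers. Control readings were 2.51, 2.56 and 2.55. Restricted livers gave 6.84, 6.96 and 6.64, and atherogenic livers 4.83, 4.72 and 3.81. The third restricted value fell just short of the detection level and both other restricted values passed it, which made them the only arrays above it for this gene. Restricted livers were at least 1.12-fold higher than control (adjusted p = 6.9e-14), and the measured means were 6.81 and 2.54. The atherogenic mean of 4.45 also differed from control in the fit (adjusted p = 5.1e-08), but with both groups below the detection level no fold is given. A further probe set gave the same order, with 6.46, 6.83 and 6.38 under restriction, 4.30, 4.18 and 3.80 on the atherogenic diet and 2.29 in each control, and its restricted mean of 6.56 left it just outside the filter. Readings this close to the floor of the scale conceal how much mice differ, and the p-values may be too small. The gene was tested only because the restricted mice passed the filter, so its p-values under restriction are not read as evidence.

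Abcb1a lies at chr5:8567091-8748575 with Abcb1b and Abcb4 beside it. Probe sets for Abcb1b, the paralog between them, did not pass the filter, and the brighter of them read 3.13 in control and 3.02 under restriction. The promoter of Abcb1a is shown because its transcript passed the detection level in restricted livers alone.
Abcb1a promoter, chr5:8566841-8567140, plus strand: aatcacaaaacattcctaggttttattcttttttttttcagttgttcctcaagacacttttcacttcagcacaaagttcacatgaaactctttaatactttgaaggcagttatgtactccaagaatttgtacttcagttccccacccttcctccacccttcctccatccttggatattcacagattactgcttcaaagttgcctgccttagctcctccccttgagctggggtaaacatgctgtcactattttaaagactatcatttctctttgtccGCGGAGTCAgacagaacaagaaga
Capitals mark an antioxidant response core on the opposite strand at 26 to 34, after the start site. That core was also found in the promoters of Abcc2 and Abcc4, and the 3 members with it are to be read against the 12.4% of all promoters.

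Abcc2, the canalicular pump for conjugated anions, had its lowest mean in control livers, at 10.49, 10.15 and 10.41. Restricted livers read 11.55, 11.27 and 11.60, Western livers 11.15, 11.46 and 11.47, and atherogenic livers 11.28, 11.26 and 11.40. All 9 lay above the control range. The level was 218.3% of control under restriction (176.4 to 270.3, adjusted p = 2.3e-05), 202.1% on Western (163.3 to 250.2, adjusted p = 8.1e-05), 195% on the atherogenic diet (157.6 to 241.4, adjusted p = 0.00015) and 173.3% on high fat (140 to 214.5, adjusted p = 0.0012). Lab chow, at 10.73, 11.05 and 11.06, was at 151.3% (122.2 to 187.3, adjusted p = 0.012), a call lost without control replicate 2 (adjusted p = 0.072) and with the groups fitted alone (0.1). The EFA-deficient level was 142% (114.7 to 175.7, adjusted p = 0.033). There the call was lost without control replicate 2 (adjusted p = 0.15), control replicate 3 (0.064) or EFA-deficient replicate 1 (0.16), and with the groups fitted alone (0.25). On that diet 1 of 7 hepatocyte markers, Hnf4a, was at 66.6% of control (adjusted p = 0.026), where 2.47% of all genes were lower. The part of Hnf4a in this result was not tested. All 8 diets stood above control in the mean, and every diet overlapped the next in the order of levels. Only the low n-3 group overlapped control itself. These comparisons share the control arrays, which had the lowest mean.

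Abcc3, the basolateral pump for glucuronides and bile salts, split the diets into 2 sets. Control livers read 8.31, 9.55 and 8.80. The 3 values were 10.86, 10.91 and 10.95 on lab chow, 10.65, 10.64 and 10.82 on high fat and 10.46, 10.72 and 10.80 on Western food. Atherogenic livers read 10.45, 10.56 and 10.60, and restricted livers 11.57, 10.99 and 10.76. No liver of these 5 diets reached down to the highest value of the other 4 diets, which was 9.63 in a low n-3 mouse. The level was 406% of control on lab chow (262.4 to 628.9, adjusted p = 0.00011), 353% on high fat (228.1 to 546.7, adjusted p = 0.00036), 343% on Western (221.3 to 530.3, adjusted p = 0.00048), 314% on the atherogenic diet (203.1 to 486.7, adjusted p = 0.00099) and 466% under restriction (301.2 to 722, adjusted p = 3.7e-05). The Western call alone was lost in 1 alternative, the fit of its 2 groups alone (adjusted p = 0.051). Livers on high fructose were at 104.3% of control (67.4 to 161.5), those on the EFA-deficient diet at 89.8% (58.0 to 139.1) and those on the low n-3 diet at 87.7% (56.6 to 135.7).

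Abcc4, a basolateral pump for bile salts and nucleotides, stayed below the detection level in all 27 livers and was not tested. Its probe set read 3.48, 4.48 and 4.76 in control and 6.22, 6.43 and 6.10 in restricted livers. The restricted mice stood above all other arrays, of which the highest was 4.76. Without the filter on low signal the fitted log2 difference was 2.01 (adjusted p = 0.00014), and no fold is given with both groups below the detection level.

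The restricted mice ate lab chow, so lab chow is their control of the same food. Against it 4 tested members were higher and 2 lower, where 19.2% and 17.6% of all genes were called. Abcb1a is again among the 4 and had passed the filter only through the restricted mice, and of the other 8 tested members 3 were higher and 2 lower. Abcc3, so much higher than in control livers, was at 114.8% of lab chow (74.2 to 177.7, adjusted p = 0.65). Slco1a4 was at 683% of lab chow (297.6 to 1568, adjusted p = 0.00074) and Abcb1a at least 1.12-fold higher (adjusted p = 9.3e-15). Slc10a1 was at 165.9% of lab chow (130.9 to 210.3, adjusted p = 0.0015), with all 3 restricted values above the chow range. Abcc2 was at 144.3% (116.6 to 178.6, adjusted p = 0.0078), a call lost without lab chow replicate 1 (adjusted p = 0.051). Abcb11 was at 65.9% (56.3 to 77.2, adjusted p = 2e-04). Abcb4 and Slco1b2 were at 118.4% (94.6 to 148.1) and 81.3% (58.4 to 113.4).

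Among cell type markers, restricted livers had a summed hepatocyte marker intensity of 343590 to 382600, against 304408 to 312831 in control, with 2 of 7 markers called higher, Pck1 of gluconeogenesis and Tat of tyrosine breakdown. Of 5 detected Kupffer cell markers 1 was lower than control, Clec4f, and of 5 detected stellate markers 1 was lower, Col3a1. Of all genes, 13.5% were called higher and 16.0% lower than control under restriction. Timd4, Cd68, Des, Col1a1 and Hgf were below detection in all arrays of both groups. Marco was so in all control arrays and Lrat in all restricted arrays. The Kupffer sum ran from 1175 to 3174 against 2924 to 3811 in control, and the stellate sum from 2933 to 4252 against 4245 to 5465. The part of these shifts in the transporter values was not tested. On lab chow 1 of 5 Kupffer markers and 1 of 6 endothelial markers, Clec4f and Stab2, were lower than control, where 2.19% of all genes were.

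**Figure D4:**
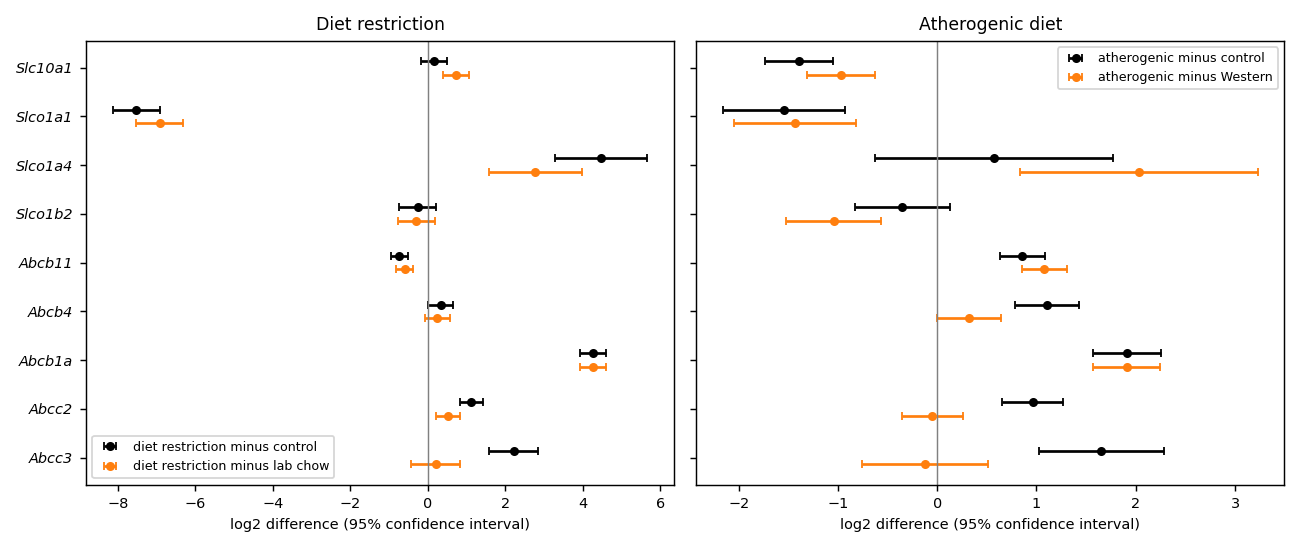
Log2 differences with 95% confidence intervals for the 9 tested transporter genes (rows), for diet restriction against control (black) and against lab chow (orange) on the left and for the atherogenic diet against control (black) and against the Western diet (orange) on the right. For Abcc3 the orange intervals cover 0 in both panels and the black ones do not, while Slco1a1 lies far to the left of 0 under restriction against either food.

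The atherogenic and Western diets share fat and sucrose, and the former adds cholic acid and more cholesterol. The atherogenic diet had 3 members higher and 3 lower than Western, where 11.3% and 6.50% of all genes were called. Abcb11 was at 211% of Western (180.2 to 247.1, adjusted p = 1.3e-06) and Slc10a1 at 50.9% (40.2 to 64.5, adjusted p = 0.00032), and in neither did the groups overlap. Slco1a1 was at 37.1% of Western (24.2 to 56.7, adjusted p = 0.0019), with a log2 difference of -0.91 in place of -1.43 without atherogenic replicate 2 (adjusted p = 0.0088) and an adjusted p of 0.097 with the groups fitted alone. Slco1a4 was at least 1.68-fold higher (adjusted p = 0.017). That call was lost without atherogenic replicate 2 (adjusted p = 0.087) or 3 (0.069), without Western replicate 2 (0.078) or 3 (0.052), and with the groups fitted alone (0.064). Slco1b2 was at 48.6% (34.8 to 67.7, adjusted p = 0.0032), but with its brightest probe set alone the log2 difference was -0.41 in place of -1.04 (adjusted p = 0.2). Its mean includes the dim set 1427826_a_at, kept only through the Western diet. With the filter at log2(200), which drops that set, the difference was -0.67 (adjusted p = 0.029). Abcb1a, also among the 3 higher, differed in the fit (adjusted p = 1.2e-07) with both groups below detection. Abcb4, Abcc2 and Abcc3, all higher than control on both diets, were at 125.2% (100.1 to 156.6), 96.5% (78.0 to 119.4) and 91.8% (59.3 to 142.1) of Western.

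Kupffer cell markers moved with the atherogenic group. Their summed intensity was 7012 to 12541 in atherogenic livers, 2924 to 3811 in control and 1501 to 2347 on the Western diet. Timd4 and Marco were below detection in all arrays of these groups. Cd68 was so in all control and Western arrays, and Adgre1 in all Western arrays. Of 5 detected markers, 2 were higher than control, Cd5l and Clec4f, where 9.03% of all genes were higher. All 5 were higher than on the Western diet, where 11.3% of all genes were. The hepatocyte sum was 301312 to 313045 against 304408 to 312831 in control, with none of 7 markers called. Of 6 detected endothelial markers 1 was lower than control, Clec4g at 61.4% (adjusted p = 0.048), where 5.88% of all genes were lower. The median log2 difference of the 6 was -0.52. The endothelial sum was 1667 to 3266 against 3073 to 3856 in control. Pecam1 was below detection in all arrays of both groups, Lyve1 in all atherogenic arrays and Cdh5 in all control arrays. Atherogenic replicate 2, the lowest for Slc10a1 and Slco1a1, also had the lowest stellate and endothelial marker sums of its group, 1740 and 1667. Its hepatocyte sum of 313045 was the highest of the group, and its Kupffer sum of 10698 lay between those of the other atherogenic arrays. The part of these shifts in the transporter values was not tested.

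Across livers the members did not vary as a block. Over the 27 arrays, the same livers for every gene, the Pearson correlation of Abcc2 with Abcc3 was 0.776, and 0.27 after the diet means were removed. Slc10a1 and Slco1a1 correlated at -0.239 over all arrays and at 0.855 over the 24 arrays without diet restriction, and within diets the value was 0.623. Slco1a1 and Abcb1a stood at -0.949 over all arrays and at -0.155 within diets. Slco1b2 and Abcc2 correlated at 0.727 within diets and at 0.379 over all arrays. These are descriptions of shared patterns in the same livers.

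The genes whose pattern over the 27 arrays was most like that of each member were picked by correlation. For Slco1a1 they were Hsd3b5, a steroid dehydrogenase, at 0.994, Mup3, a major urinary protein, at 0.984 and Elovl3, a fatty acid elongase, at 0.982, with 0.926, 0.837 and 0.736 when diet restriction was left out. Abcb1a, close to the lowest value in most livers, was nearest to Nampt at 0.956, Maff at 0.946 and Cbr1 at 0.943. Without diet restriction these values were 0.766, 0.67 and 0.792, and within diets 0.547, 0.137 and 0.206. Slco1a4 was nearest to the cationic amino acid carrier Slc7a2 at 0.899, Fam234b at 0.881 and Mia3 at 0.88. Its values were 0.782, 0.702 and 0.719 without diet restriction, and 0.664, 0.252 and 0.528 within diets. Abcc3 was nearest to the cytochrome P450 genes Cyp3a25 at 0.888 and Cyp2c37 at 0.883 and to Entpd5 at 0.883, which stayed at 0.869, 0.883 and 0.909 without diet restriction. For Slc10a1 the nearest were Tgfbr3 at 0.859, Dmgdh at 0.815 and Cnmd at 0.813, and for Slco1b2 Etfdh at 0.841, Scyl3 at 0.819 and 1600012H06Rik at 0.805. Abcb11 was followed by Zdhhc18 at 0.879, Agrn at 0.864 and Ywhab at 0.856, Abcb4 by Dglucy at 0.885, Ddah1 at 0.847 and Siae at 0.833, and Abcc2 by Wasl at 0.838, Gtf2h1 at 0.833 and Strbp at 0.826.

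Other hepatic transporters, 27 of 30 on the array and 15 past the filter, are given for comparison. Counts here and in the lists below are to be read against the shares of all genes called in each comparison, given above. On the atherogenic diet 4 of 15 were higher, among them Abcg5 and Abcg8, which together form the canalicular sterol pump, with 1183% (805.4 to 1737, adjusted p = 8e-09) and 1012% of control (689.2 to 1486, adjusted p = 2.1e-08), then Slc22a18 at 173.1% and Abca1, and 2 were lower, Slc22a7 and Slc22a23. The median of the 15 was 0.17 on the log2 scale, against 0.03 over all genes. Under restriction 3 were higher and 4 lower, among them Abcg5 at 349.9% and the organic anion carrier Slc22a7 at 8.08% of control (3.63 to 18, adjusted p = 0.00014). On the Western diet Abcg5 was at 444.6%, Abcg8 at 355.4% and the efflux pump Abcg2 at 188.4%, and 5 were higher and 1 lower in all. High fat gave 3 higher and 1 lower, with the carnitine carrier Slc22a5 at 225.9%. On lab chow and on the EFA-deficient diet none was higher and 2 were lower, Slc22a7 and Slc22a23, and Slc22a23 alone was lower on high fructose and on the low n-3 diet. Against lab chow, restriction gave 3 higher and 4 lower, where 19.2% and 17.6% of all genes were called. Against the Western diet the atherogenic diet gave 2 higher and 1 lower, where 11.3% and 6.50% of all genes were.

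Of 18 genes of bile acid synthesis and conjugation, 17 passed the filter. On the atherogenic diet Cyp8b1, the sterol 12-hydroxylase, was at least 40.9-fold lower than control (adjusted p = 1.2e-11), and Cyp7a1, the rate-limiting enzyme, at least 2.53-fold lower (adjusted p = 0.035). Cyp7b1 was at 51.1% of control, and 4 of 17 were lower and 2 higher in all, Cyp39a1 and Cyp2c70. Under restriction 4 were lower, with Cyp8b1 at 16.2%, Hsd3b7 at 25.2% and Cyp7b1 at 32.6% of control, and 3 were higher, with the oxysterol hydroxylase Cyp39a1 at 1254% (895.7 to 1756, adjusted p = 6.5e-10). The Western diet gave 4 higher and 1 lower, high fat 3 higher, lab chow 1 higher, high fructose 2 lower, and EFA-deficient and low n-3 diets none. Against lab chow, restriction gave 3 higher and 7 lower, and against the Western diet the atherogenic diet gave 1 higher and 7 lower. The medians over the 17 genes were -0.03 on the atherogenic diet and -0.16 under restriction, against 0.03 and -0.03 over all genes.

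Among 18 detected receptors and regulators of these genes, Nr1i2 was at 185.7% of control on the atherogenic diet (140.6 to 245.2, adjusted p = 0.0043) and at 265.5% under restriction (201 to 350.6, adjusted p = 3.8e-05). Nr1i3, the gene of CAR, was at 388.3% under restriction (290.4 to 519.3, adjusted p = 9.7e-07), 249.9% on high fat and 189.8% on Western food, and at 58.8% and 58.9% on high-fructose and EFA-deficient diets. Nfe2l2 was at 175.3% on the atherogenic diet (adjusted p = 0.015), where Nr1h4 and the FGF receptor partner Klb were lower. Cux2, a repressor known as female-predominant in mouse liver, passed the filter only through restriction and was at least 2.59-fold higher there than control (adjusted p = 6.3e-15). It is among the genes counted as higher under restriction, and its p is not read as evidence. In all, the atherogenic diet gave 2 higher and 2 lower, against 6 higher and 1 lower under restriction, 2 higher on high-fat and on Western diets, 2 lower on high fructose and 3 lower on the EFA-deficient diet, with none on lab chow or low n-3. Against lab chow 5 were higher under restriction, and the atherogenic diet gave 1 higher and 2 lower than Western.

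Of the 14 detected target enzymes of CAR, PXR and Nrf2, 10 were higher than control on lab chow and none lower, with a median log2 difference of 0.70 against -0.05 over all genes. Cyp2c55 was at least 2.63-fold higher there (adjusted p = 7.5e-08), Gstm3 at 402.4% and Ces2a at 322.4% of control. Cyp2c55 passed the filter only through lab chow, and Cyp2b10 lay below the detection level both there and in control. Both genes are in the count of 10 and in the median, which are therefore not read against all genes. On the atherogenic diet 9 were higher and none lower, led by Gstm3 at 667.5% (378.6 to 1177, adjusted p = 6.7e-05) and Gstm1 at 289.2%, with a median of 0.69. Under restriction 6 were higher and 1 lower, with Gstm3 at 1715% and Cyp2b10, the classic CAR target, at least 6.44-fold higher than control (adjusted p = 1.7e-13). Cyp2b10 passed the filter only through restriction and is among the genes counted as higher there, against control and against lab chow. Its p is not read as evidence. High fat gave 3 higher, Western 4, high fructose 1, and EFA-deficient and low n-3 none. Cyp2b10 on high fat and Cyp2c55 on the atherogenic diet are in these counts with both groups below the detection level. Against lab chow, restriction gave 2 higher and 4 lower, with Cyp2c55 at 32.0% and Gclc, of glutathione synthesis, at 36.3%. Against the Western diet the atherogenic diet gave 3 higher and 1 lower.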

How the data were processed

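Liver RNA of 27 mice, 3 per diet, was hybridised to Affymetrix mouse whole-genome arrays. GCRMA, run by the authors, had removed background and normalized the arrays, and the log2 intensities it gave were used as deposited. Background correction sets many dim probe sets to 1 shared lowest value, which hides their spread. Arrays were grouped by the labels. Probe sets were named by the platform annotation, kept when their mean exceeded log2(100) in at least 1 diet and averaged per gene. Diets were compared with R 4.3.3 and limma 3.58.1 in a single fit of all arrays, with Benjamini-Hochberg adjustment at 0.05 jointly for all kept genes and 8 diets. Diet restriction against lab chow, atherogenic against Western and the F-test were adjusted on their own. The fit was tested on simulated data. Alternatives were other filters, priors, weights, scalings, probe sets and adjustments, a replicate block, the groups alone, Dunnett's comparison (multcomp 1.4.28), and each array left out. Named genes are the members, up to 4 called genes per list and comparison by size of change (Abca1, Cyp2c70, Slc22a23 on the atherogenic diet and the cell type markers were named after their values were seen), and the 3 genes most correlated with each member. Members and lists were chosen with earlier results of these data known. Promoters came from RefSeq (GRCm38.p6), with an entry for 9 of 10 members (not Abcc3), and Slc10a1 and Abcc4 had 2 entries each. Matplotlib 3.10.9 under Python 3.11.15 drew the plots.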

Additional observations from a re-analysis of the deposited data

How the results depend on the processing

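Of 36 calls of a member in a comparison, 25 were kept under every alternative run and 11 were lost under at least 1, and no direction changed. Against control, 24 of 72 tested pairs of gene and diet were called, and 18 to 27 under the alternatives, lowest with the groups compared alone and highest with array weights. Leaving out single arrays gave 20 to 25. Restriction against lab chow gave 6 calls and 5 to 7 under the alternatives, atherogenic against Western 6 and 4 to 7, and the F-test 9 and 8 to 10. With the replicate number as a block (replicate block) the counts were 24, 6, 6 and 9, the same as without it. Same-numbered arrays of different diets correlated from -0.273 to 0.413 with a median of 0.0032 in their deviations from the diet means, so not every pair was above the 0.1 required here and the numbers were not taken as pairs. Of 27 arrays, 17 were nearest to an array of their own number, where 9 would be if the numbers were unrelated to the arrays, a hint from the data and not from the design. The calls lost most often were Slc10a1 on lab chow (9 of 17 alternatives), then Slco1a4 on high fructose, Slco1a4 between atherogenic and Western and Abcc2 on the EFA-deficient diet, and the cause was not tested. Array weights added Slco1a4 on lab chow (2.10 on the log2 scale, adjusted p = 0.0062), Slco1b2 on Western (0.84, adjusted p = 0.0052), Abcb11 on high fructose (0.26, adjusted p = 0.047) and Abcb4 between atherogenic and Western (0.39, adjusted p = 0.043). Abcb1a has no value with the filter at log2(200). Signals near the lowest value limit Abcb1a, Abcc4 and part of Slco1a4.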
